A study of Mus musculus with 4 samples.

Results

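The comparison described here set renal cortex of nondiabetic mice without intercellular adhesion molecule 1 (ICAM-1), on the array called ND-KO, against renal cortex of nondiabetic wild type mice, on the array called ND-WT. All gene probes that the scanner software had marked usable on both arrays were taken, leaving out those in columns 44 to 48 of the first block row of the slide. These were 6026 of 9532 probes outside those edge columns, and 10032 gene probes in all. Averaging probes of 1 gene gave 5974 genes of 9900 on the whole array, and 5492 of them had 1 symbol. The mice of ND-WT were male C57BL/6J, ICAM-1+/+, given an intraperitoneal injection of citrate buffer at 8 weeks of age and killed 12 weeks later, at 20 weeks. Those of ND-KO were male ICAM-1-/- mice, also labelled C57BL/6J, with the same injection and the same ages. The remaining arrays, DM-WT and DM-KO, held ICAM-1+/+ and ICAM-1-/- male mice of that strain label given streptozotocin, a toxin of the insulin-producing beta cell, at 200 mg/kg in citrate buffer at 8 weeks and killed at 20 weeks. All mice ate a standard diet. The labels count 5 mice in each group but there is 1 array per group, and whether an array held 1 mouse or pooled RNA is not given in the sources used here. The labels also do not name the knockout allele or say whether the wild type mice were littermates. A difference between the arrays therefore had no replicate check, could not be told apart from a difference between 2 preparations of RNA, and is given as a size.

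ICAM-1 is a surface protein of the immunoglobulin family on endothelium, tubule epithelium and leukocytes. Leukocytes bind it through the beta2 integrins LFA-1 and Mac-1 when they stop on a vessel wall and leave it. In the diabetic kidney it is known for its part in the entry of macrophages into glomeruli and interstitium. In nondiabetic cortex, most RNA comes from proximal tubule cells, which burn fatty acids, make glucose and take back what the glomerulus filters.

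The expression profiles of both nondiabetic arrays were close. Among genes usable on both, the one that differed most, Plin2, was lower on ND-KO. Genes of lipid droplets and fuel use (Plin2, Pdk4, G6pc, Pck1), of protein folding in the cytosol (Hspa1a, Hsph1) and in the endoplasmic reticulum (Manf, Hspa5) were among the lower ones. Among the higher ones were Stra6l, Cyp4a14, Bcl6 and Cpe. Markers of macrophages, lymphocytes and tubule segments, respiratory chain genes and, but for Alcam, adhesion molecules differed by less than 1.5-fold where they were usable on both arrays. So did all but 2.43% of the genes compared. At least 1.5-fold higher on ND-KO were 64 genes, or 1.07% of those compared, and at least 1.5-fold lower were 81, or 1.36%. At least 2-fold higher were 5 genes, or 0.0837%, and at least 2-fold lower were 15, or 0.251%. Of the genes past 1.5-fold, 44.1% were thus higher on ND-KO. That share was 27.3%, with 9 higher and 24 lower, when background was corrected by the normexp model with an offset of 50, which pulls dim probes towards no difference.

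**Figure D1:**
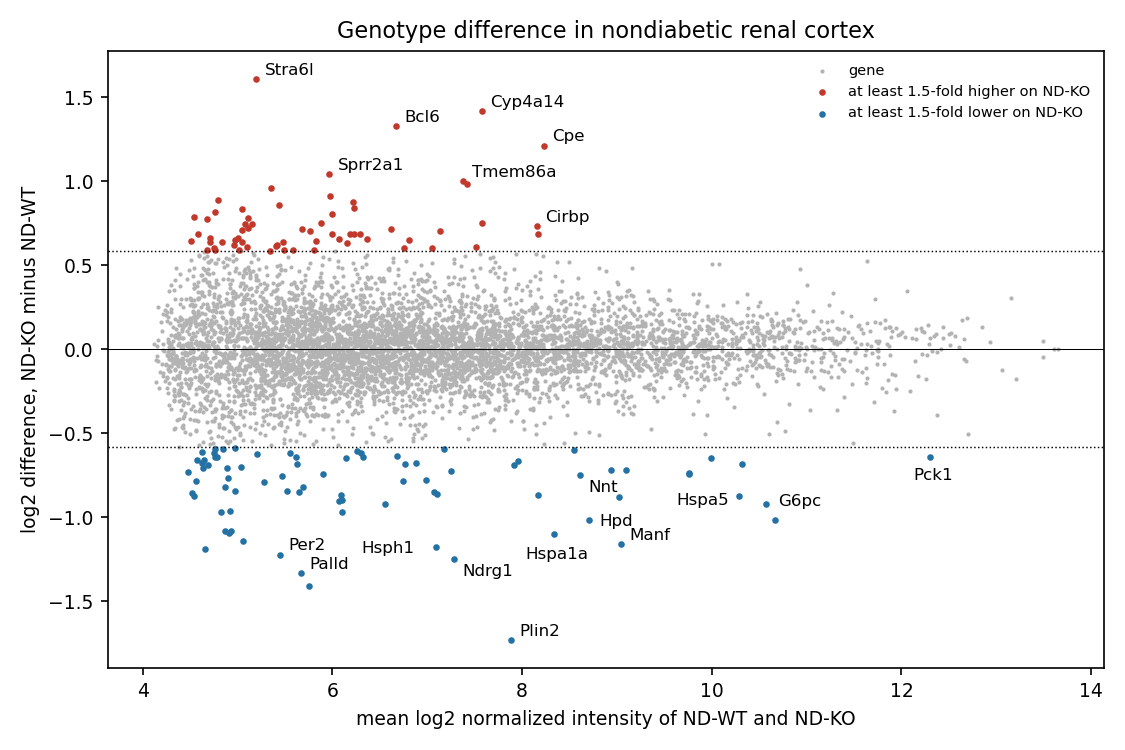
Log2 difference of each of 5974 genes between ND-KO and ND-WT (vertical) against its mean log2 normalized intensity on both arrays (horizontal), with dotted lines at 1.5-fold. Differences spread more widely among dim genes (left), and Plin2, at -1.73, lies lowest.

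Intensities are given in scanner units after local background was subtracted and the arrays were brought to 1 common distribution, so levels of different probes are not compared. Across 5686 genes usable on all 4 arrays, log2 intensities of ND-WT and ND-KO correlated at r = 0.992, as a description across genes, which are not replicates. The other pairings of the 4 arrays had r from 0.981 to 0.99. Outside the edge columns 65.0% of gene probes were usable on ND-WT and 66.1% on ND-KO. Median intensity before scaling was 43.9 and 44.9, while negative control spots had medians of 3.95 and 3.91. The log2 differences had an SD of 0.286 among the 1494 dimmest genes, where 4.48% were past 1.5-fold, and 0.185 among the 1494 brightest, where 1.34% were. Bacterial control RNAs, which were added to the samples, read 1.27 times higher on ND-KO than on ND-WT by their median, and 2.2 times higher on DM-KO than on DM-WT. In the 51 genes with several usable probes, the probes' differences lay a median of 0.131 log2 units apart and none lay more than 1.5-fold apart. The genotype labels were not checked, since Icam1 was not analysed here.

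Lipid storage and fuel choice held the lowest gene of the comparison. Plin2, perilipin 2, which coats lipid droplets, read 432 on ND-WT, 130.0 on ND-KO, 536 on DM-WT and 186 on DM-KO. Both knockout arrays were below both wild type arrays, and the nondiabetic pair differed by 3.32-fold (log2 difference -1.73). Pdk4, the kinase that shuts pyruvate dehydrogenase and spares glucose, read 38.2 on ND-WT, 16.8 on ND-KO, 81.4 on DM-WT and 23.4 on DM-KO, again lower on both knockout arrays, with a log2 difference of -1.19 in the nondiabetic pair. Pdk4 was dim on the knockout arrays, and its difference shrank to -0.40 with normexp at an offset of 50. Cyp4a14, a fatty acid omega-hydroxylase induced through PPAR-alpha, went the other way, with 117 on ND-WT and 313 on ND-KO, a difference of 1.42. Its intensity on the diabetic arrays was far above both, at 1805 and 1411. These 3 were the only members past 1.5-fold of 29 measured genes of fatty acid oxidation and PPAR-alpha targets, whose median difference was 0.02, against 0.004 over all genes. The 2 lower ones stand beside 1.36% of all genes that were at least 1.5-fold lower, and the higher one beside 1.07%. Acadm, medium-chain acyl-CoA dehydrogenase of beta-oxidation, lay close on both arrays, with 2842 on ND-WT and 3132 on ND-KO. The highest of the other members were Ucp2, an uncoupling protein homologue (0.44), and Ppara itself (0.43).

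Of 25 measured genes of glucose handling, 2, G6pc and Pck1, were at least 1.5-fold lower on ND-KO, where 1.36% of all genes were, and none was higher. G6pc, glucose-6-phosphatase, which releases free glucose, read 2092 on ND-WT and 1102 on ND-KO, a difference of -0.92. ND-WT stood alone for this gene, since DM-WT read 1120.3 and DM-KO 983. Pck1, phosphoenolpyruvate carboxykinase, the committed step of renal glucose synthesis, read 6282 on ND-WT, 4027 on ND-KO, 7047 on DM-WT and 2989.5 on DM-KO. It was lower on the knockout array of each pair, with differences of -0.64 and -1.24. Fbp1, which acts between them in the pathway, did not follow, with 5475 on ND-WT and 5475 on ND-KO. Akr1b3, aldose reductase, differed by -0.47 in the nondiabetic pair and by 0.70 in the diabetic pair. The median of the list was -0.02.

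Further metabolic enzymes were lower on ND-KO. Hpd, an enzyme of tyrosine breakdown, read 595 on ND-WT, 294 on ND-KO, 291 on DM-WT and 294 on DM-KO, so that ND-WT was the single high array. Ugt2b37, a glucuronosyltransferase, had the same shape, with 707 on ND-WT, 385 on ND-KO, 356 on DM-WT and 371 on DM-KO. Alas1, the rate-limiting enzyme of haem synthesis, read 1272 on ND-WT, 813 on ND-KO, 1191 on DM-WT and 693 on DM-KO, lower on both knockout arrays. Nnt, the mitochondrial transhydrogenase that makes NADPH, read 506 on ND-WT, 301 on ND-KO, 505 on DM-WT and 290.4 on DM-KO. Its differences of -0.75 and -0.80 were nearly equal in the nondiabetic and the diabetic pair. C57BL/6J mice are known to carry a deletion within Nnt, and where its probe lies relative to that deletion was not analysed here. Nnt was the single member past 1.5-fold among 34 measured genes of mitochondrial redox and antioxidant defence, with a list median of 0.04. That count stands beside 1.36% of all genes that were at least 1.5-fold lower. None of 39 respiratory chain and ATP synthase genes was past 1.5-fold, and they ranged from -0.30 to 0.18 with a median of -0.03. None of 18 genes of cholesterol and fatty acid synthesis was past 1.5-fold either.

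Cytosolic heat shock genes stood lower on ND-KO as a list. All 18 listed genes with a probe outside the edge columns were usable. Of these, 17 had a difference below 0, where 2930 of 5974 genes did, and 8 were at least 1.5-fold lower, where 1.36% of all genes were. Their median difference was -0.56, against 0.004 over all genes, and it was -0.42 with normexp at an offset of 50. These genes encode chaperones that fold or rescue proteins, and heat shock factor 1 is known to drive them through inverted pairs of the 5-base unit GAANN. RefSeq's promoter table on build GRCm38.p6 held 14 of the 18, and the 250 bases before each start were searched on both strands for such a pair, written GAANNTTC or TTCNNGAA. It lay before 4 of the 8 genes that were past 1.5-fold and before 3 of the other 6, and before 12.8% of all 32851 promoters of the table. A gene counted if any of its promoters matched, while the 12.8% is a share of promoters. Dnaja1 matched at 1 of 3 promoters and Hspd1 at 1 of 2. A match describes these letters and is not a bound site. The 150 bases before the start of 3 of the matching lower genes are given here, 5′ to 3′ on the gene's strand, with the pair in capitals: Hspa1a on the minus strand at chr17:34972157-34972306, Hsph1 on the minus strand at chr5:149636337-149636486, and Hspb1, with 2 pairs, on the plus strand at chr5:135887769-135887918.
Hspa1a: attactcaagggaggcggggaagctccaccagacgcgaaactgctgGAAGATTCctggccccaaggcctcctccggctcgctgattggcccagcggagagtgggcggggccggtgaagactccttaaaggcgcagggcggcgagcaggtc
Hsph1: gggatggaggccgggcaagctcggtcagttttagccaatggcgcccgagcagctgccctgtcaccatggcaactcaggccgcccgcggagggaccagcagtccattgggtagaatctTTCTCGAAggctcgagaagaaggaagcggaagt
Hspb1: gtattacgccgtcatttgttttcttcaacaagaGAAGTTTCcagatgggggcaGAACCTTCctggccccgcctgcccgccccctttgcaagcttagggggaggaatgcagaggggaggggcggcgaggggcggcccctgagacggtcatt

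Hsph1, which resets HSP70 by exchanging its nucleotide, was the lowest of the heat shock genes, with 205 on ND-WT and 90.9 on ND-KO, a difference of -1.18. Its spot on DM-WT was of poor quality, and DM-KO read 76.7. Hspa1a, the stress-inducible HSP70, read 474 on ND-WT, 221 on ND-KO, 738 on DM-WT and 105 on DM-KO. The knockout array was the lower one in both pairs, with differences of -1.10 and -2.81. Hspa1b, its near-identical neighbour, read 1615 on ND-WT, 1007 on ND-KO, 2423 on DM-WT and 500.0 on DM-KO, in the same order. The stretch printed for Hspa1a was identical to that of Hspa1b at 149 of 150 bases. Since the genes are so alike, signal of their probes may be shared and is uncertain as to which gene it came from. Dnajb1, the HSP40 partner of HSP70, read 166 on ND-WT and 97.1 on ND-KO and Chordc1, a partner of HSP90, 628 on ND-WT and 382 on ND-KO. Hspb1, the small heat shock protein HSP27, read 149 on ND-WT, 93.4 on ND-KO, 301 on DM-WT and 109 on DM-KO, so that the high array was DM-WT and ND-KO the lowest. Hspa4l (-0.69) and Stip1 (-0.59), which hands clients from HSP70 to HSP90, were the other members past 1.5-fold. Below that size lay Dnaja1 (-0.56), Hsp90aa1 (-0.50) and Hspa8, the constitutive HSP70 (-0.39). The mitochondrial chaperones Hspd1 (-0.04) and Hspe1 (0.13), also carried in the list, lay close to 0. In the diabetic pair, 14 of 16 measured members were below 0, where 2736 of 5686 genes were. At least 1.5-fold lower were 9 of the 16, beside 2.46% of all genes, and the median was -0.75. Hspa4l, lower in the nondiabetic pair, differed there by 0.06. Cirbp, an RNA-binding protein induced by mild cold, was higher on ND-KO, with 222 on ND-WT, 369 on ND-KO, 159 on DM-WT and 387 on DM-KO. Both knockout arrays lay above both wild type arrays for Cirbp. Rbm3, likewise a cold-induced RNA-binding protein, lay close on both nondiabetic arrays, with differences of -0.09 and -0.06 at its probes.

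**Figure D2:**
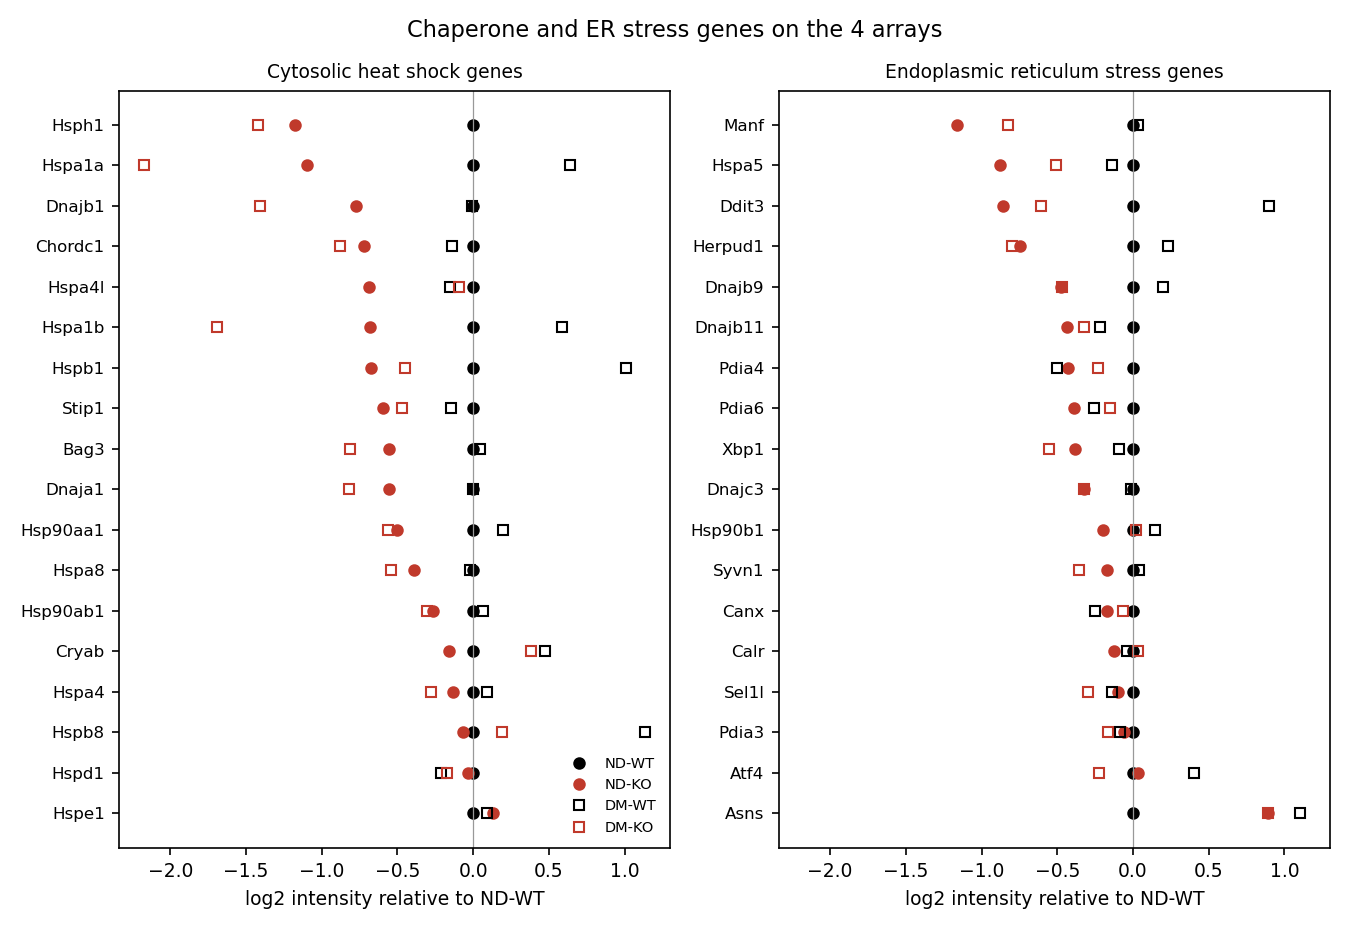
Log2 intensity of each measured cytosolic heat shock gene (left) and endoplasmic reticulum stress gene (right) on the 4 arrays, relative to ND-WT at 0; arrays on which a spot was not usable are left out. ND-KO (filled red) lies left of ND-WT (filled black) for 17 of 18 and 16 of 18 genes, and DM-KO (open red) lies left of DM-WT (open black) for 14 of 16 and 14 of 18.

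Genes that answer misfolded protein in the endoplasmic reticulum were lower on ND-KO in 16 of 18 measured cases, where 2930 of 5974 genes were. At least 1.5-fold lower were 4, where 1.36% of all genes were, and the list median was -0.35. Manf, a factor secreted under endoplasmic reticulum stress, read 789 on ND-WT, 352 on ND-KO, 808 on DM-WT and 445 on DM-KO, lower on both knockout arrays, with a nondiabetic difference of -1.16. Hspa5, the main chaperone of that compartment (BiP), read 1692 on ND-WT, 922 on ND-KO, 1538 on DM-WT and 1189 on DM-KO, with ND-KO the lowest array. Ddit3, the stress transcription factor CHOP, read 185 on ND-WT, 102 on ND-KO, 344 on DM-WT and 121 on DM-KO. Herpud1, which helps to degrade misfolded proteins, read 1127 on ND-WT, 672 on ND-KO, 1319.8 on DM-WT and 648 on DM-KO, and here both knockout arrays lay together below both wild type arrays. Dnajb9 (-0.48), Dnajb11 (-0.44), Pdia4 (-0.43) and the transcription factor Xbp1 (-0.38) were lower by less than 1.5-fold. Calr, Canx and Pdia3, the calreticulin and calnexin cycle, ranged from -0.17 to -0.06. Atf4, a stress transcription factor, differed by 0.03 in the nondiabetic pair and by -0.63 in the diabetic pair. Asns, asparagine synthetase, was the single member at least 1.5-fold higher on ND-KO, where 1.07% of all genes were. It read 20.4 on ND-WT and 37.9 on ND-KO. Asns was dim, and its difference of 0.89 became 0.32 with normexp at an offset of 50. In the diabetic pair 5 of 18 members were at least 1.5-fold lower, where 2.46% of all genes were, and the median was -0.26. These genes are known to be driven through the ER stress response element, written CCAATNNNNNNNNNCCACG, and a second form, ATTGGNCCACG. Searched on both strands, the first lay in 0.113% of all promoters, before 1 of 3 members past 1.5-fold lower that had a promoter in the table and before 6 of 14 others. The second lay in 0.0304% of promoters, before 1 of the 3 and 0 of the 14. Both cases among the lower genes are printed with the element in capitals, Hspa5 on the plus strand at chr2:34771940-34772089 and Herpud1 on the plus strand at chr8:94386279-94386428.
Hspa5: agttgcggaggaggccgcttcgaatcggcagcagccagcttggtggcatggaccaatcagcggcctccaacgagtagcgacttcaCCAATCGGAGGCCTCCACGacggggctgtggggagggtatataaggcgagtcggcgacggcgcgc
Herpud1: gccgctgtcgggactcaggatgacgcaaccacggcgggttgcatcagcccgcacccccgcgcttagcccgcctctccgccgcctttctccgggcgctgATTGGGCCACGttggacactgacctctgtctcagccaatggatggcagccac

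Clock genes split. Of 11 measured members, 3 were at least 1.5-fold lower on ND-KO, where 1.36% of all genes were, and none higher, with a median of -0.14. Per2, a period protein that represses the clock's activators, read 66.6 on ND-WT and 28.5 on ND-KO, a difference of -1.22. Cry1, its partner, read 42.2 on ND-WT and 21.7 on ND-KO, a difference of -0.96. Neither was usable on DM-KO, and both were dim, with differences under 1.5-fold after normexp with an offset of 50 (Per2 -0.57). Dbp, a clock output gene, was higher on ND-KO, with 902 on ND-WT and 1283 on ND-KO (0.51), while Per1 differed by -0.18, Cry2 by 0.02 and Nr1d2 by 0.12. The hour at which tissue was taken is not given in the sources used here. Noct, a rhythmic phosphatase (nocturnin), read 140.3 on ND-WT, 81.5 on ND-KO, 389 on DM-WT and 53.9 on DM-KO, lower on both knockout arrays, and was below 1.5-fold in the nondiabetic pair with normexp at an offset of 50.

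Among genes of stress and hormone signalling, Ndrg1, which is induced by low oxygen and by other stresses, read 241 on ND-WT, 101 on ND-KO, 316 on DM-WT and 144 on DM-KO. Both knockout arrays were below both wild type arrays, with differences of -1.25 and -1.13. Sgk1, a kinase induced by glucocorticoids and aldosterone that raises sodium uptake, read 389 on ND-WT, 213 on ND-KO, 1099.9 on DM-WT and 223 on DM-KO, with DM-WT far above the others and the knockout array lower in each pair. Tsc22d3, a glucocorticoid-induced leucine zipper protein, read 1120.4 on ND-WT, 671 on ND-KO, 1036 on DM-WT and 446 on DM-KO. Sgk1 was the single member past 1.5-fold of 15 measured immediate early genes, beside 1.36% of all genes at least 1.5-fold lower. The list median was -0.09. Among those usable on ND-WT alone, Myc, a growth transcription factor, read 2.05-fold lower on ND-KO and Nr4a2, a nuclear receptor, 1.77-fold. These folds are ratios to readings marked empty on ND-KO. Cish, a suppressor of cytokine signalling, read 39.8 on ND-WT and 20.3 on ND-KO. Palld, palladin of the actin cytoskeleton, had 1 low array, ND-KO, with 80.8 on ND-WT, 32.0 on ND-KO, 71.0 on DM-WT and 62.4 on DM-KO. Among the 15 lowest named genes, Banp, a DNA-binding nuclear matrix protein, read 49.3 on ND-WT and 22.4 on ND-KO (-1.14) and was lower in both pairs. Cryl1 (-1.10), Pank2 of coenzyme A synthesis (-1.08) and Siah1a, a ubiquitin ligase (-1.08), read 20.1 to 44.3 on the nondiabetic arrays. Banp, these 3 and Cish were dim, and all 5 were below 1.5-fold with normexp at an offset of 50.

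Among genes usable on both nondiabetic arrays, the highest on ND-KO was Stra6l, a receptor for retinol-binding protein. It read 21.0 on ND-WT, 64.1 on ND-KO, 43.3 on DM-WT and 75.9 on DM-KO. ND-WT was the low array, near the lowest usable intensity of 16.4, and the nondiabetic difference was 1.61. Bcl6, a transcriptional repressor of inflammatory and metabolic genes, read 64.3 on ND-WT, 161 on ND-KO, 166 on DM-WT and 93.2 on DM-KO, a difference of 1.33 in the nondiabetic pair and of -0.84 in the diabetic pair. Cpe, carboxypeptidase E, which trims peptide hormones, read 197 on ND-WT, 456 on ND-KO, 160.0 on DM-WT and 232 on DM-KO and was highest on ND-KO. Tmem86a, a lysoplasmalogenase, read 118 on ND-WT, 236 on ND-KO, 104 on DM-WT and 213 on DM-KO, and its differences of 1.00 and 1.03 made it the gene with the largest difference common to both pairs among the higher ones. The 15 highest named genes also held Sprr2a1, a proline-rich protein of epithelia (1.04), Cyp2g1, a cytochrome P450 (0.96), and Apoh, beta2-glycoprotein I (0.84). Nrep, read at 46.0 on ND-WT, 86.5 on ND-KO, 28.4 on DM-WT and 76.5 on DM-KO, was higher on both knockout arrays. Sprr2a1, Cyp2g1, Apoh and Nrep were below 1.5-fold with normexp at an offset of 50. Arsg, a lysosomal sulfatase, read 147 on ND-WT, 248 on ND-KO, 121 on DM-WT and 232 on DM-KO, with the same order. Among bright genes that were higher on ND-KO without reaching 1.5-fold were the urate transporter Slc22a12 (0.57), Marcks, a substrate of protein kinase C (0.56), Hmgb2, a chromatin protein (0.55), and Umod, uromodulin of the thick limb (0.53).

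The leukocyte receptors of ICAM-1 could not be compared: Itgal and Itgam, the alpha chains of LFA-1 and Mac-1, and Itgb2, their common beta chain, were not usable on either nondiabetic array. Of 35 listed leukocyte adhesion receptors and ligands, 29 had a probe outside the edge columns and 16 were usable on both nondiabetic arrays; 8 were above 0, 8 below, and the median was -0.01. Icam2, a constitutive endothelial ligand of LFA-1, read 34.6 on ND-WT and 30.2 on ND-KO, a difference of -0.20. Vcam1, the ligand of the integrin VLA-4, read 83.0 on ND-WT and 85.6 on ND-KO, Pecam1 59.9 on ND-WT and 62.4 on ND-KO, and Cd47 372 on ND-WT and 344 on ND-KO. Icam4, Icam5, Sele and Selp were not usable on any of the 4 arrays. The single member past 1.5-fold was Alcam, the ligand of CD6, beside 1.07% of all genes that were at least 1.5-fold higher. Alcam read 32.2 on ND-WT, 58.4 on ND-KO, 50.4 on DM-WT and 84.1 on DM-KO, higher on both knockout arrays by 0.86 and 0.74. Its difference was 0.40 with normexp at an offset of 50.

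Markers of macrophages and monocytes were above 0 in 14 of 14 measured cases, where 3043 of 5974 genes were. None was past 1.5-fold, with a median of 0.16 and a highest value of 0.44 for Cd14, a receptor for endotoxin. The 14 were those usable on both nondiabetic arrays, of 22 with a probe outside the edge columns. Of the rest, near background, Mrc1, Msr1, Itgam and Fcgr1 read lower on ND-KO before scaling, and Adgre1, Cd163, Cybb and Ptprc higher. C1qb, a chain of complement C1q, read 147 on ND-WT, 160.3 on ND-KO, 298 on DM-WT and 214 on DM-KO, and Ctss, the lysosomal protease cathepsin S, 149 on ND-WT, 157 on ND-KO, 327 on DM-WT and 227 on DM-KO. On these the diabetic wild type array was highest. In the diabetic pair, 10 of the 14 were below 0, where 2736 of 5686 genes were. The summed intensity of the 14 was 1002 on ND-WT and 1108 on ND-KO. Interferon-induced genes were above 0 in 17 of 20 cases with a median of 0.19. The 1 past 1.5-fold was Iigp1, an interferon-induced GTPase that attacks vacuoles of parasites, beside 1.07% of all genes at least 1.5-fold higher. Iigp1 read 50.3 on ND-WT and 81.0 on ND-KO (0.69). It was below 1.5-fold with normexp at offsets of 50 and 16. Irf7, a driver of interferon genes, read 158 on ND-WT, 173 on ND-KO, 1097 on DM-WT and 285 on DM-KO, so that both nondiabetic arrays were below both diabetic ones. In the diabetic pair all 20 were below 0 and 13 were at least 1.5-fold lower, where 2.46% of all genes were. Antigen presentation genes were above 0 in 9 of 13 cases with a median of 0.22, led by Psmb10, a subunit of the immunoproteasome (0.52), and all 12 measured in the diabetic pair were below 0. Among 22 measured chemokines, cytokines and their receptors, only Ccl28 was at least 1.5-fold lower (-0.62), where 1.36% of all genes were. It was not with normexp at offsets of 50 and 16. None of the 22 was at least 1.5-fold higher, and the median was 0.04. Of 9 lymphocyte markers usable on both arrays none was past 1.5-fold. Among those usable on 1, Cd2, a T cell adhesion molecule, read 1.68-fold lower on ND-KO, where its spot was marked empty. Ighm, the heavy chain of immunoglobulin M, was at least 1.51-fold higher on ND-KO. Of 9 neutrophil markers with a probe outside the edge columns only Ngp was usable (0.45).

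**Figure D3:**
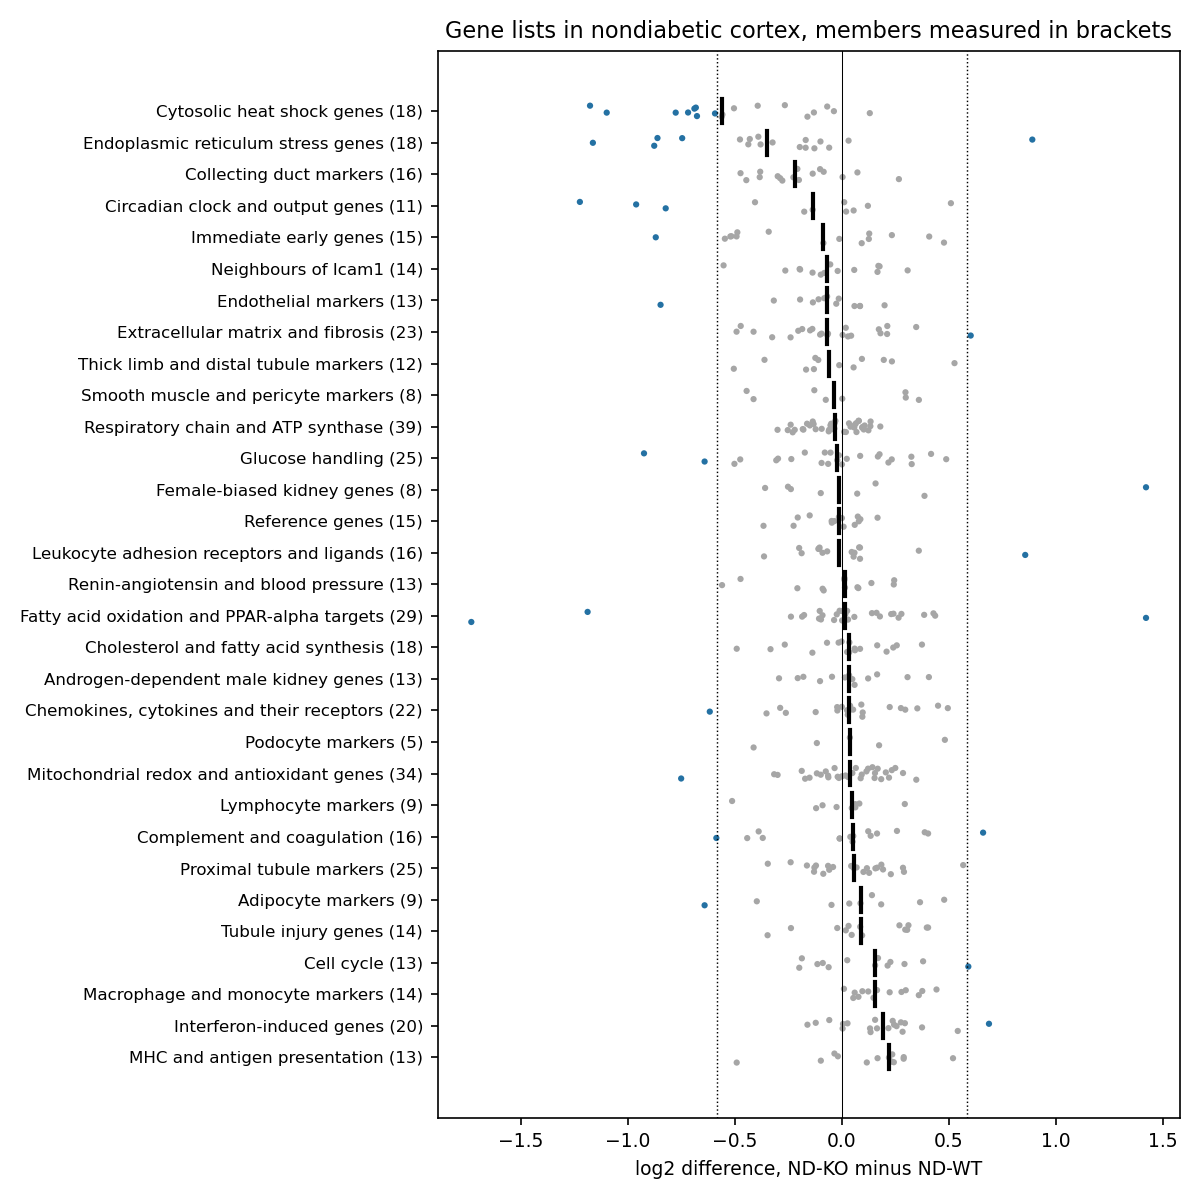
Log2 difference between ND-KO and ND-WT of the measured members of each gene list with at least 5 of them, 1 point a gene, with the median as a black bar and dotted lines at 1.5-fold; points past it are blue. Cytosolic heat shock genes have the lowest median, -0.56, and antigen presentation genes the highest, 0.22.

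Markers of tubule segments and of tubule injury that were usable on both arrays differed by less than 1.5-fold. Past it were 1 of 13 endothelial and 1 of 23 matrix genes, beside 2.43% of all genes in either direction. Such single genes are not read as a difference of their lists. All 25 proximal tubule markers with a probe outside the edge columns were usable, none was past 1.5-fold, and the median was 0.05. Collecting duct markers were below 0 in 13 of 16 cases, where 2930 of 5974 genes were, and none was past 1.5-fold. Their median was -0.22, with a lowest value of -0.47 for Hsd11b2, which protects the mineralocorticoid receptor from glucocorticoids. Aqp2, the water channel of principal cells, read 1020.3 on ND-WT, 782 on ND-KO, 1248 on DM-WT and 1500.4 on DM-KO. The summed intensity of the 16 collecting duct markers was 5496 on ND-WT and 4689 on ND-KO. In such bulk RNA, fewer cells of a type and less RNA per cell cannot be told apart. Thick limb and distal tubule markers had a median of -0.06 over 12, and none of 13 androgen-dependent male kidney genes was past 1.5-fold. Of 13 endothelial markers, Sox18, an endothelial transcription factor, was lower, with 61.5 on ND-WT and 34.2 on ND-KO (-0.85), and the median was -0.07. Sox18 was below 1.5-fold with normexp at an offset of 50. Among 23 extracellular matrix genes usable on both arrays 1 was past 1.5-fold, Mmp14, a membrane protease (0.60). It was not with normexp at offsets of 50 and 16 (0.21 and 0.38). Mmp14 was dim, with 21.9 on ND-WT and 33.2 on ND-KO. Among the 1494 dimmest genes, at 17.4 to 48.5, 4.48% were past 1.5-fold. Of the matrix genes usable on 1 array, Col4a1, a collagen IV chain, read 3.37-fold lower on ND-KO, and Fbn1, fibrillin 1, 1.97-fold higher. Each is a ratio to a reading marked empty. None of 14 tubule injury genes was past 1.5-fold.

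Adipocyte markers were not alike in their presence. Cfd, adipsin, was usable on ND-KO alone, at 77.6, at least 4.72-fold above ND-WT, where its spot was marked empty. Adipoq, adiponectin, was likewise usable on ND-KO alone, at 46.6, at least 2.83-fold above ND-WT. Neither was usable on a diabetic array. Plin4, Pparg, Retn, Cidea and Ucp1 were not usable on any array, and the 9 adipocyte markers measured on both nondiabetic arrays had a median of 0.09 and ran from -0.64 (Pck1, which kidney also expresses) to 0.48 (Lpl). Those 9 summed to 9473 on ND-WT and 7898 on ND-KO. Without Pck1 the direction turned, with sums of 3190.4 and 3871 for the other 8. Most of that turn was Lpl alone, which read 1649 on ND-WT, 2296.5 on ND-KO, 1177 on DM-WT and 959 on DM-KO. The part of fat tissue in the differences was not tested. Of the adrenal markers, the steroid enzymes Cyp11a1, Cyp21a1 and Hsd3b1 were not usable on any array.

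For a gene usable on 1 nondiabetic array, a bound of its fold was taken against the dim array. Its own reading there was used or, where larger, that array's lowest usable intensity, 16.4 on ND-WT and 15.1 on ND-KO. For named genes, "at least" marks folds against the lowest usable intensity. The other folds are ratios to a reading marked empty, which is uncertain. Of 276 probes usable on ND-KO alone, 253 had a spot marked empty on ND-WT, and 25 of these had a bound of at least 1.5-fold. Of 173 usable on ND-WT alone, 152 had a spot marked empty on ND-KO, and 40 of these had one. Besides the adipocyte genes, Sprr1a, a proline-rich protein of stressed epithelia (at least 2.81-fold), Dkk2, a Wnt antagonist (2.09-fold), and Fbn1, fibrillin 1 (1.97-fold), were the highest on ND-KO. On ND-WT the highest was Col4a1, a collagen IV chain of basement membranes. It read 61.5 there against 18.2 at a spot marked empty on ND-KO, a ratio of 3.37. It was usable on DM-WT too, at 67.2, and not on DM-KO. The collagen IV chains Col4a2 and Col4a3, usable on both nondiabetic arrays, had log2 differences of -0.07 and 0.21. Next on ND-WT were Acvr1b, an activin receptor (at least 2.88-fold), and Rcan2, a calcineurin regulator (2.72-fold). Cdc26, a subunit of the anaphase-promoting complex (2.69-fold), and Gatc, of mitochondrial transfer RNA charging (2.42-fold), followed.

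The diabetic pair shares no array with the nondiabetic pair and gave a second reading of the genotype difference, in other mice and under diabetes. Of 5686 genes usable on all 4 arrays, 108 were at least 1.5-fold higher on DM-KO than on DM-WT, or 1.9%, and 140 at least 1.5-fold lower, or 2.46%. Of the 64 among these that were at least 1.5-fold lower on ND-KO, 52 were also below 0 in the diabetic pair, where 2736 of 5686 genes were. Past 1.5-fold lower in both pairs were 26 of the 64, and none was past 1.5-fold the other way. These 26 were 40.6% of the nondiabetic list and 18.6% of the diabetic one. Of the 58 at least 1.5-fold higher on ND-KO, 37 were also above 0 in the diabetic pair, where 2949 of 5686 genes were. Past 1.5-fold higher in both pairs were 16, which were 27.6% and 14.8% of the lists, while 4 were past 1.5-fold the other way. With normexp at an offset of 50, 15 genes were past 1.5-fold lower in both pairs and 3 higher. Lower in both pairs, besides genes already described, were Nap1l5, a nucleosome assembly protein homologue (-0.92 and -0.82), Pdlim1, an actin-associated protein (-0.72 and -1.52), Pmaip1, the cell death factor Noxa (-0.64 and -1.66), Tfec, a transcription factor (-0.97 and -0.62), Cdr2 (-0.66 and -0.79) and Dnaja4, a further HSP40 (-0.64 and -1.17). Among those higher in both were Ggt6, of the gamma-glutamyltransferase family (0.75 and 0.98), Fabp7, a fatty acid-binding protein (0.72 and 1.02), Klk11, a serine protease (0.70 and 0.81), Rab23, a small GTPase (0.68 and 0.76), Angpt2, a ligand of the endothelial receptor Tie2 (0.66 and 1.09), Prkd3, a protein kinase D (0.63 and 1.06), Egfl6 (0.66 and 0.62), Hnrnpd, an RNA-binding protein (0.61 and 0.89) and Fam241b (0.70 and 0.59).

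**Figure D4:**
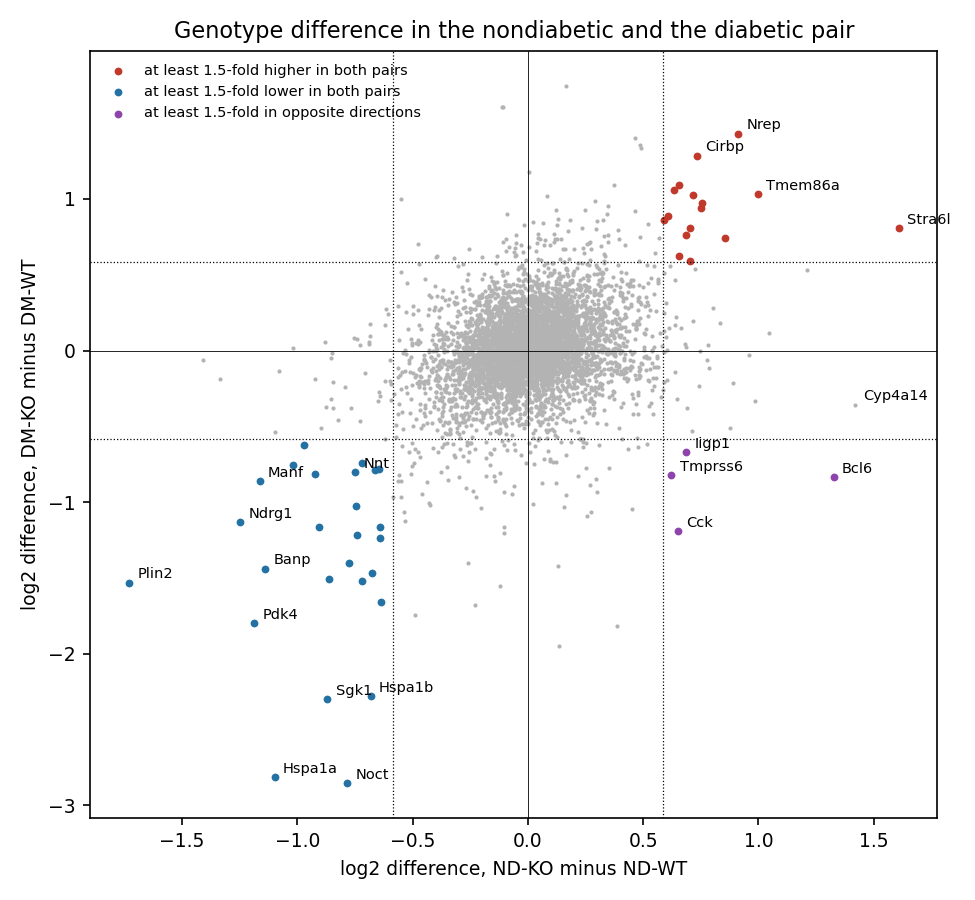
Log2 difference between knockout and wild type in the diabetic pair (vertical) against the nondiabetic pair (horizontal) for 5686 genes, 1 point a gene, with dotted lines at 1.5-fold. The lower left corner holds 26 genes and the upper right corner 16, and 4 genes lie past 1.5-fold in opposite directions.

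A single fit across all 4 arrays gave the only test. It took genotype and diabetes as additive terms in limma, which left 1 residual degree of freedom for each gene. That residual was the departure from additivity, the inequality of the genotype differences in both pairs, and not a spread between replicate arrays. Strength was borrowed across genes, and the p-values cover these 4 arrays alone. Hspa1a, with unequal differences of -1.10 and -2.81, had an SE of 0.36. Of 5689 genes tested, 2 passed a Benjamini-Hochberg adjusted p of 0.05, or 0.0352%, and both fell with the knockout. Plin2 fell by 1.63 on the log2 scale (SE 0.101, limma with Benjamini-Hochberg adjusted p = 0.0183), and was lower in 2 of 2 pairs. Ndrg1 fell by 1.19 (SE 0.0967, adjusted p = 0.0456 in the same limma fit), also in 2 of 2 pairs. None passed in the higher direction, and 625 genes of either direction had an unadjusted p under 0.05. The next by p, Tmem86a, had an adjusted p of 0.0663 in that limma fit. The count depended on the settings. No gene passed without the intensity trend in the spread, where the lowest adjusted p was 0.152, or without diabetes in the model, where it was 0.379. With median scaling 29 genes passed as higher and 56 as lower, and with normexp at an offset of 50, 9 and 17.

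Genes beside Icam1 on its chromosome stay linked to a knockout allele in breeding, and their levels were read as well. Of the 60 annotated genes nearest to it in RefSeq's order, 30 on each side, 24 had a probe outside the edge columns and 14 were usable on both nondiabetic arrays. None was past 1.5-fold and the median was -0.07. Keap1, the sensor of oxidative stress that holds NRF2, was the lowest, with 99.3 on ND-WT, 67.7 on ND-KO, 75.4 on DM-WT and 67.5 on DM-KO, a difference of -0.55. Fbxl12, an F-box protein, was the highest at 0.31, and Ubl5 and Mrpl4 differed by -0.05 and -0.02.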

How the data were processed

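Per the labels, biotin-labelled RNA of renal cortex was read on CodeLink bioarrays, 1 for each group. The deposited scanner tables hold, per the file headers, linear mean intensity of each spot and the median around it, neither subtracted nor scaled. The deposited series value table holds intensity too: each column was that array's background-subtracted intensity divided by 1 constant, within 0.1% for 100% of probes compared. Its column medians were 0.926 to 0.93, genes were not centred, and the rule behind the constant is unknown. It served as an alternative.

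Background was subtracted, values under 1 were set to 1, poor spots were set to missing, and log2 values were quantile-normalized over the 4 arrays in limma 3.58.1 under R 4.3.3. Counts and lists were computed in Python 3.11.15 with pandas 2.3.3. Printed intensities are 2 to the power of the normalized log2 value. Gene names came from the platform's annotation (8923 probes) or an accession (286), and 822 had no symbol. Bacterial, negative control and edge spots were left out of the comparison. The limma fit used 5689 genes with a probe usable on all 4 arrays, and was tested on simulated data. Paired counts used the 5686 whose averaged probes were all usable.

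Genes named were the 15 highest and 15 lowest, the 10 highest and lowest among those with an intensity of at least 200 on both arrays, genes past 1.5-fold in both pairs, the 5 largest bounds in each direction, the 10 lowest limma p-values in each direction, up to 4 members per list, and Nnt, Icam2, Cck and Cckar. Other list members named were chosen after their values were seen. Some genes that the rule named are not reported here. The members and lists were chosen with earlier results of these data known. Alternatives changed the background correction, the scaling, the quality filter, the edge spots and the terms of the fit.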

Additional observations from a re-analysis of the deposited data

Results flagged for a closer look

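In 4 genes the genotype difference was past 1.5-fold in opposite directions in the nondiabetic and the diabetic pair. The difference between the pairs was not tested, since each group has 1 array. Bcl6, a transcriptional repressor, differed by 1.33 on the log2 scale in the nondiabetic pair and by -0.84 in the diabetic pair. Cck, the hormone cholecystokinin, differed by 0.65 and -1.19, with its highest intensity, 480.0, on DM-WT. Iigp1, an interferon-induced GTPase, differed by 0.69 and -0.67. Tmprss6, a membrane protease that restrains hepcidin, differed by 0.62 and -0.82, and was dim at 25.1 on ND-WT and 38.6 on ND-KO. Bcl6 stayed past 1.5-fold in both pairs under each alternative run on both. With normexp at an offset of 50 the nondiabetic difference of Cck was 0.45, that of Iigp1 0.39 and that of Tmprss6 0.24, all below 1.5-fold, as they also were at an offset of 16.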

How the results depend on the processing

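No direction of a gene named by the rule turned under any alternative run. Of 63 such genes past 1.5-fold, 28 stayed past it under every alternative that gave them a value, among them Plin2, Ndrg1, Hspa1a, Hsph1, Manf, Hspa5, G6pc, Pck1, Nnt, Stra6l, Bcl6, Cpe and Tmem86a, and 33 fell below it only under the normexp background correction. Counts at least 1.5-fold higher were 9 with normexp at an offset of 50, 19 at an offset of 16 (28.8% of calls higher), 505 without the quality filter and 23 with an intensity of at least 50 on both arrays. Counts at least 1.5-fold lower were 24, 47, 548 and 40. Counts at least 2-fold higher were 2 at the offset of 50, 145 without the filter and 3 at the intensity minimum. Counts at least 2-fold lower were 2 and 8 at the offsets of 50 and 16, 168 without the filter and 7 at the minimum. For both pairs together, an alternative added after the data were seen, counts higher were 3, 9, 88 and 10 in the order of the first list, and counts lower were 15 at the offset of 50 and 114 without the filter. In the limma fit the counts higher and lower were 9 and 17 with normexp at an offset of 50, 29 and 56 with median scaling and 0 lower either without the intensity trend or with genotype alone. With edge spots kept, 1 gene passed as lower. Scaling moved the median of all genes by at most 0.02. The median of the clock list turned to 0.02 without the quality filter and 0.09 at the intensity minimum. No paired analysis was possible because each group has 1 array and so no replicate numbers to block on; the limma fit takes the diabetes state as a term instead. Leaving an array out of the 4-array fit leaves no residual degree of freedom. Spots near background set the limit: with no filter, most genes past 1.5-fold were ones not usable on both arrays.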

Other observations

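Some genes, chosen after their values were seen, had 1 array apart from the others. Ptgr2, a prostaglandin reductase, read 227 on ND-WT, 365 on ND-KO, 439.9 on DM-WT and 339 on DM-KO, with ND-WT the low array. Akr1c18, an aldo-keto reductase of progesterone breakdown, differed by 0.39 in the nondiabetic pair, with 105 on ND-WT, 137 on ND-KO, 86.7 on DM-WT and 24.6 on DM-KO, so that DM-KO was the low array. Nes, nestin, which podocytes express, read 483 on ND-WT, 675 on ND-KO, 692 on DM-WT and 642 on DM-KO, with ND-WT the low array. Edn1, endothelin 1, read 36.3 on ND-WT, 24.7 on ND-KO, 28.7 on DM-WT and 30.2 on DM-KO, and ND-WT was its high array. These are single readings with no replicate check.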
